A study of Homo sapiens with 8 samples.

Results

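The genes of the mitochondrial ribosomal proteins were examined in Caco-2 cells, an established line from a human colorectal adenocarcinoma, with and without exogenous Siglec-XII. Genes were taken by symbol, as every MRPL or MRPS symbol made of a number and at most 1 letter from A to C. The rule matched 87 of 63816 entries of the expression table, which stand for 78 genes, 49 with MRPL and 29 with MRPS symbols. The entry with the highest mean was used for each of the 4 symbols that stand on more than 1 entry, and 79 other MRPL and MRPS symbols, mostly pseudogenes, were left out. Per the labels, the empty pcDNA3.1 vector was in 4 samples, and in the other 4 this vector held SIGLEC12, which encodes Siglec-XII, a Siglec receptor with an extracellular domain that no longer binds sialic acid. Both groups were transfected and selected for stable clones, how many clones each group holds was not given in the sources used here, and the vector's viral CMV promoter rather than the native promoter of SIGLEC12 drives the transgene. The series' design text counts fewer cultures than there are samples in each group, and technical replicate libraries are described in the methods. P-values here therefore measure only the spread between these samples, which may be technical.

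Mitochondria keep their own ribosomes, which make only the few inner-membrane proteins that the mitochondrial genome encodes, all of them subunits of the oxidative phosphorylation complexes. The proteins of these ribosomes are encoded in the nucleus, made in the cytosol and imported, whereas the ribosomal RNAs, MT-RNR1 of the small subunit and MT-RNR2 of the large subunit, are transcribed from mitochondrial DNA. Assembly thus joins the products of both genomes, and defects in single ribosomal proteins are known to cause mitochondrial disease.

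The 78 genes cover most of both subunits. By known structure, 51 of their proteins sit in the large and 26 in the small subunit. MRPS18A and MRPS30 belong to the large subunit in spite of their names, and MRPS36 encodes a component of the 2-oxoglutarate dehydrogenase complex rather than a ribosomal protein. Of the 78, 45 have a counterpart in bacterial ribosomes and 29 are specific to mitochondria. The genes were spread over 21 chromosomes with at most 8 on any one (chromosomes 1, 2 and 17). Their canonical transcripts are short, with a median of 1242 nt against 3296 nt for the protein-coding genes tested, and 60 are under 2000 nt.

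RefSeq windows from 250 bases before to 50 bases after the transcription start (GRCh38.p14) matched 69 of the 78 genes. MRPL2, MRPL10, MRPL13, MRPL15, MRPL21, MRPL23, MRPL35, MRPS28 and MRPS36 had none. Of 8 motifs searched on both strands, a pair stood out in these windows. The ETS motif CCGGAAG, the kind of site bound by the factor GABP, was in 42% of the windows, against 20.3% of those of 9521 tested protein-coding genes and 10.7% of all 27305 windows. The YY1 motif AANATGGCG was in 26.1%, against 7.3% of tested protein-coding genes and 3.4% of all windows. One or the other was in 62.3% of the genes' windows and in 26.1% of those of tested protein-coding genes. These shares are descriptions, and a match is not evidence of binding.

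The ETS matches lay mostly just upstream of the start. Of 39 matches, 33 began before the start and 27 from 50 bases before it onward. The following 120 bases end at the base before the start, with ETS matches on either strand in capitals. They are shown for those of the 5 genes with the highest level that held an ETS match (MRPL51, MRPL20 and MRPL3). The windows of MRPL11 and MRPS15, also among these 5, held none. Also shown are a gene with 3 matches (MRPS34) and the genes with the smallest p-value among those lower (MRPS21) and higher (MRPS18A) with Siglec-XII.
MRPL51 (chr12:6493263-6493382, minus strand): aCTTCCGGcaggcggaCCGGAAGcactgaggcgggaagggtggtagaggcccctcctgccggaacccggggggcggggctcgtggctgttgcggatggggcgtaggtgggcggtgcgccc
MRPL20 (chr1:1407294-1407413, minus strand): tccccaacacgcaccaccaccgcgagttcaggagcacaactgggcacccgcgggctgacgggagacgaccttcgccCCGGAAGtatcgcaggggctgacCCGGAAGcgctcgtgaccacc
MRPL3 (chr3:131502972-131503091, minus strand): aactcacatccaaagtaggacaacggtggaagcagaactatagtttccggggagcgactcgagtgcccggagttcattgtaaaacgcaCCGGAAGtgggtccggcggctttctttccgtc
MRPS34 (chr16:1773135-1773254, minus strand): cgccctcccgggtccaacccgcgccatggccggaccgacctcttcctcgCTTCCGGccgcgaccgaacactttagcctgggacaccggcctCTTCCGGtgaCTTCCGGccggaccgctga
MRPS21 (chr1:150293741-150293860, plus strand): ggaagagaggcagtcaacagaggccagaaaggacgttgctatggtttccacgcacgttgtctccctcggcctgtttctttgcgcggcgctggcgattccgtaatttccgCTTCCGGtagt
MRPS18A (chr6:43687792-43687911, minus strand): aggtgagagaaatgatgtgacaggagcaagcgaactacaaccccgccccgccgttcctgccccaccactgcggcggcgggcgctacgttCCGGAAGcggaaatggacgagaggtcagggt

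The YY1 matches lay on the other side of the start. Of 20 matches in 18 genes, 16 began 7 to 36 bases after the start and all 16 read on the sense strand, where the letters of the motif include ATG, the start codon. The first 30 transcribed bases are shown for 6 of these genes, with the match in capitals. In these 6 the match lies whole within these bases and begins 7 to 14 bases after the start. MRPL42, with a match at 9 bases, has the same features and is not shown. In the genes not shown the match began at 9 to 36 bases.
MRPL32 (chr7:42932376-42932405, plus strand): cagcagggAAAATGGCGctggccatgctgg
MRPS18A (chr6:43687762-43687791, minus strand): aggtttttgAAGATGGCGgccctcaaggct
MRPS10 (chr6:42217832-42217861, minus strand): gggaccggcAAGATGGCGgcgcggacagcg
MRPL46 (chr15:88467359-88467388, minus strand): gagaacgaAAGATGGCGgcgcccgtaaggc
MRPL38 (chr17:75904855-75904884, minus strand): ggagggAAGATGGCGgcgccctggtggcga
MRPS30 (chr5:44808947-44808976, plus strand): ggaatcgcgggcaAAGATGGCGgcggccag

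MRPL38, MRPL52, MRPS10 and MRPS18A held both motifs, with 0 of the matches overlapping. The other 6 motifs were at or below their share among tested protein-coding genes. The GC box GGGCGG was in 60.9% against 72.0%, CCAAT in 29.0% against 36.7%, the NRF1 palindrome in 11.6% against 12.1%, the E-box CACGTG in 8.7% against 10.3%, TATAAA in 2.9% against 5.0%, and the CRE TGACGTCA in 0 windows against 3.3%. ETS and GC box matches can share letters, as can GC box and NRF1 matches.

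These genes also shared their start regions with other genes more often than most. On GRCh37, 27 of the 78 (34.6%) had a gene on the opposite strand with its start within 1000 bases, against 18.2% of the 12081 tested protein-coding genes. In a single case the partner is a gene of the same set, as MRPL46 of the large and MRPS11 of the small subunit start 63 bases apart. MRPS12 and SARS2, the mitochondrial seryl-tRNA synthetase, start 181 bases apart, and the complex I genes NDUFS6 and NDUFB5 each start 41 bases from MRPL36 and MRPL47. Housekeeping partners include TCP1, a chaperonin subunit, 109 bases from MRPL18, and FAU, the precursor of a cytosolic ribosomal protein, 6 bases from MRPL49.

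All values are TPM (transcripts per 1000000 transcripts, a unit scaled for transcript length) or log2(TPM + 1), as deposited. The transfected gene matched the labels, with SIGLEC12 at 0.0795 ± 0.0342 TPM (SD, n = 4) with the empty vector and at 1667 ± 71.3 TPM (SD, n = 4) in the Siglec-XII samples (exact permutation p = 0.0286, two-sided, the lowest possible with 70 labellings). The labels give about 25000000 to 40000000 reads per sample, the table holds no read counts, and 15513 to 15934 entries reached 1 TPM per sample. All 5 general epithelial markers were present, among them KRT8 at 4260 TPM. Of 12 colon markers, 8 were under 1 TPM in every sample, including CDH17 and HNF4A. Only 2, CDX1 and CDX2, averaged 1 TPM or more, at 147 and 40.6 TPM. Of 18 trophoblast markers, 7 were under 1 TPM in every sample, namely CGB3, CGB5, CGB8, GCM1, PAPPA2, LEP and INSL4. Another 10 averaged 1 TPM or more. The highest were GATA3, HSD3B1, KRT7 and TFAP2C, at 380, 345, 247 and 161 TPM. PSG1, PSG4, ERVW-1 and ERVFRD-1, also among the 10, averaged only 1.22 to 1.4 TPM. The summed level of the general epithelial markers ran from 8260 to 9230 TPM in the empty vector samples and from 9840 to 10200 TPM in the Siglec-XII samples, and that of the colon markers from 163 to 186 and from 190 to 215 TPM, both without overlap. The colon sum came almost wholly from CDX1 and CDX2. Of the 5 general epithelial markers, 4 were higher with a p of 0.05 or less before adjustment and 0 passed the adjustment (limma). Of all entries tested, 13.9% were higher at this p before adjustment and 68.1% were above 0. The summed trophoblast level overlapped, at 1080 to 1240 and 1130 to 1200 TPM, as did the fibroblast level, at 70.7 to 86.8 and 83.2 to 89.1 TPM. Of 6 blood cell markers 5 and of 5 liver markers 5 were under 1 TPM in every sample, and of 6 fibroblast markers 1 was. The name Caco-2 is that of the labels, and the identity of the line was not tested. The part of cell identity in the results below was not tested.

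All 78 genes were above 1 TPM in all 8 samples and passed the filter. Together they took 6558, 6931, 6885 and 7213 TPM in the 4 samples with the empty vector and 6742, 6797, 6910 and 7185 TPM in those with Siglec-XII. The means were 6896 ± 268 and 6909 ± 197 TPM (SD, n = 4 each), so the groups overlapped throughout and the means differed by less than the spread within either group. The large subunit genes averaged 95.3 ± 3.96 TPM per gene without and 95.8 ± 2.78 TPM with Siglec-XII, and the small subunit genes 77.2 ± 2.72 and 76.7 ± 2.07 TPM (SD over samples, n = 4).

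Although the products meet in 1 particle, the mRNA levels of single genes differed up to 43.6-fold. Mean levels ran from 6.43 TPM for MRPL23 to 280 TPM for MRPL51, with a median of 73.4 TPM, and 54 genes lay from 30 to 150 TPM. MRPL51, a protein specific to mitochondria, was at 278, 266, 276 and 314 TPM with the empty vector and at 259, 268, 276 and 303 TPM with Siglec-XII. MRPL11, near the binding site of the translation factors, averaged 275 ± 14.9 and 282 ± 8.12 TPM, and MRPL3, which reaches toward the peptidyl transferase center, 280 ± 11.5 and 275 ± 7.31 TPM. The ranges of these 3 genes overlapped and have no order beyond their spread. MRPL20 followed with 206 ± 14.7 and 201 ± 8.97 TPM, and MRPS15, the most abundant of the small subunit, with 196 ± 14.6 and 197 ± 6.95 TPM, again not apart from each other.

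At the low end, MRPL23, a protein at the exit of the peptide tunnel, stood apart with at most 8.69 TPM in any sample. MRPL50 (15.7 TPM over all samples), MRPS21 (16.4), MRPS18B (16.8) and MRPL41 (18.3) came next. The level of MRPS18B depends on how its entries are counted, since the table holds 7 entries with this symbol, 6 of them with identical values. Their sum was 113 to 124 TPM, with a mean of 117 TPM in both groups, which places MRPS18B 20th among the 78 rather than 75th. MRPS12, the protein of the decoding site that governs accuracy, has 2 identical entries of 26.8 TPM each and moves from rank 71 to rank 51 when they are summed. For MRPL45 the entry on chromosome 17 held at most 0.586 TPM, and the entry used (ENSG00000277936), which is not in the GRCh37 annotation, held 99.2 to 112 TPM. Of 77 pseudogene entries of 34 of these genes, 4 reached a mean of 1 TPM. The pseudogenes of MRPS31 summed to 13.2 TPM, or 33.6% of the level of MRPS31 itself, so reads could be divided between them.

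**Figure D1:**
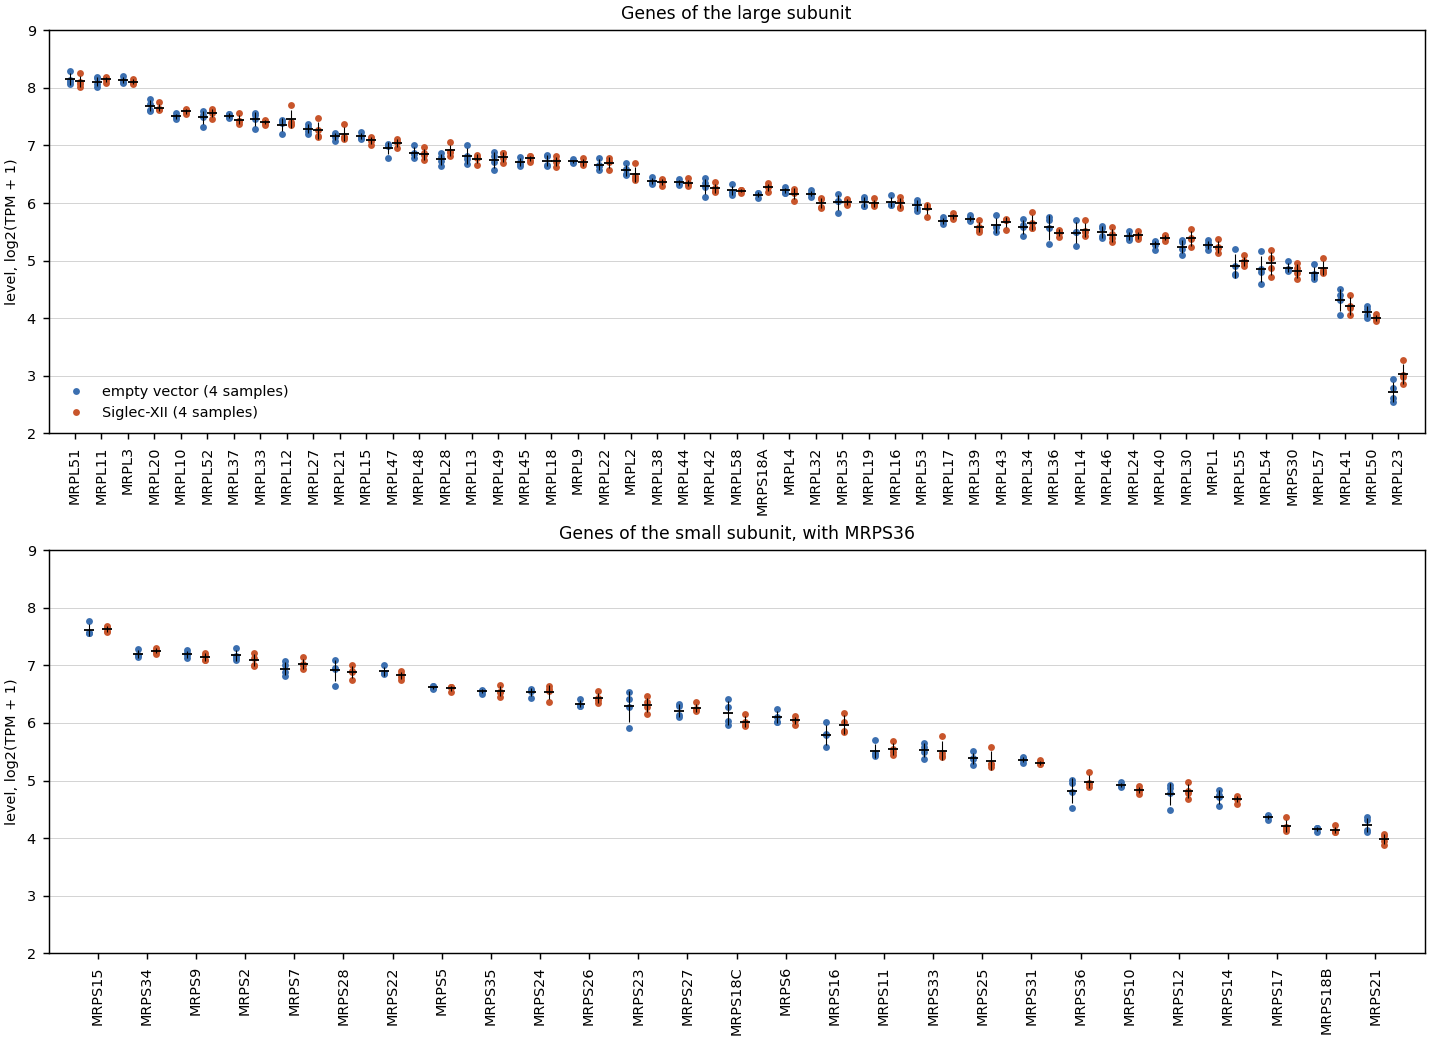
Level of each gene, as log2(TPM + 1), in the 4 empty vector samples (blue) and the 4 Siglec-XII samples (orange), with genes ordered by mean level within the large subunit (top) and the small subunit with MRPS36 (bottom). Points are samples, black dashes are group means and bars are SDs. Levels span 43.6-fold from MRPL51 to MRPL23, and within nearly every gene the groups overlap.

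The comparison of Siglec-XII with the empty vector asks which genes differ between the samples with and without the receptor. None of the 78 genes passed an adjusted p of 0.05 (limma on log2(TPM + 1), Benjamini-Hochberg over 15590 entries), where 0.648% of all entries did, 0.34% higher (53 entries) and 0.308% lower (48 entries). The lowest adjusted p among the 78 was 0.194, for MRPS21. Before adjustment, 7 had a p of 0.05 or less (8.97%), 3 higher and 4 lower, where 16.5% of all entries passed, 13.9% higher and 2.61% lower. Thus the count higher lay below the share over all entries, and the count lower above it. The 78 log2 differences ran from -0.24 to 0.31, 34 of them above and 44 below 0, with a median of -0.01. Over all entries the median was 0.07 and 68.1% were above 0, against 43.6% of these genes. These counts depended on the scaling and on 1 sample. With equal upper quartiles 0 were higher and 12 lower before adjustment, after quantile normalization 1 and 11, and without empty vector replicate 1 0 were higher. Under both scalings the median of the 78 was -0.07, beside 0.01 over all entries, and 19 and 20 genes were above 0.

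The data bound how large a difference could have been missed in these samples. The median half-width of the 95% intervals was 0.15 on the log2 scale, and 57 of the 78 intervals lay within 0.25 of 0, 65 within 0.3, 74 within 0.4 and 77 within 0.5. The interval that reached further was that of MRPL23, up to 0.59. The lowest bound of any gene was -0.42, for MRPS21. The standard errors had a median of 0.06, against 0.08 for the 9709 entries with mean levels in the same range.

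**Figure D2:**
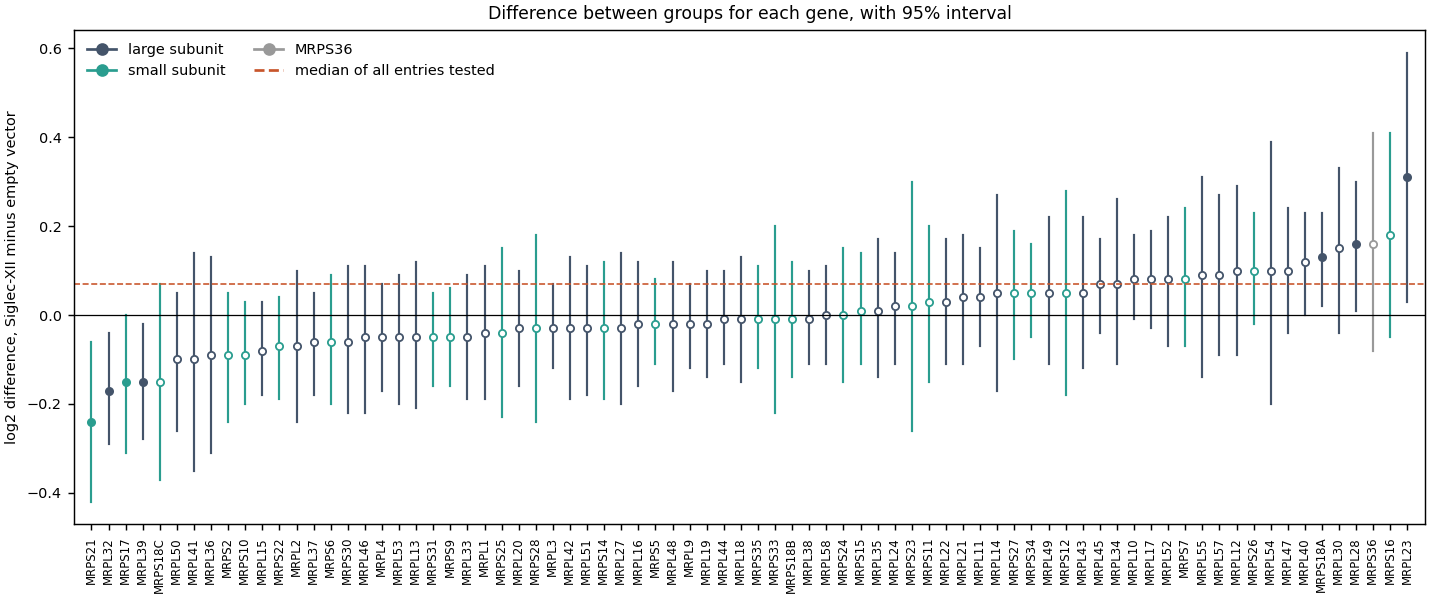
Log2 difference (Siglec-XII minus empty vector) of each of the 78 genes with its 95% interval from limma, ordered by size, with filled points where the unadjusted p was 0.05 or less. The dashed line is the median of all entries tested, at 0.07. Filled points are 4 genes below and 3 above 0, with unfilled points among them, and 77 intervals lie within 0.5 of 0.

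Transcript length moved with the differences. Among tested protein-coding genes the median log2 difference was -0.10 for canonical transcripts under 500 nt, 0.01 from 500 to under 1000 nt, 0.04 from 1000 to under 2000 nt, 0.07 from 2000 to under 4000 nt and 0.10 from 4000 nt on. The gene of the set under 500 nt had -0.05, the 25 with 500 to under 1000 nt a median of 0.00, the 34 with 1000 to under 2000 nt one of -0.02, the 12 with 2000 to under 4000 nt one of 0.03, and the 6 of 4000 nt or more one of -0.01. With the trend over length removed, the 78 genes had a median of -0.05 beside 0.00 over all entries, with 25 above 0, and before adjustment 1 was higher and 9 were lower.

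Among the large subunit genes with lower values, only MRPL32 had groups that did not overlap. MRPL32, a protein matured by the m-AAA protease of the inner membrane before it joins the ribosome, was at 68.1, 70.0, 71.4 and 73.7 TPM with the empty vector and at 67.0, 59.3, 66.0 and 59.9 TPM with Siglec-XII. All samples with Siglec-XII lay below all of those without, with the nearest samples close, at 67.0 and 68.1 TPM. The log2 difference was -0.17 ± 0.06 (SE), with an adjusted p of 0.196 by limma. MRPL39, which resembles a part of threonyl-tRNA synthetase, averaged 52.2 ± 1.89 and 47.0 ± 3.02 TPM (log2 difference -0.15, limma adjusted p = 0.240), and 1 sample with Siglec-XII, at 51.3 TPM, lay within the range of the empty vector. MRPL15 and MRPL50 had log2 differences of -0.08 and -0.10, with overlapping samples.

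MRPS18A, MRPL23 and MRPL28 were the large subunit genes with higher values and a p of 0.05 or less before adjustment. MRPS18A was at 66.8, 70.9, 70.6 and 71.7 TPM with the empty vector and at 72.2, 80, 76 and 78.1 TPM with Siglec-XII, so that the groups did not overlap, with the lowest sample of Siglec-XII close to the highest of the empty vector. Its log2 difference was 0.13 ± 0.05 (SE), with an adjusted p of 0.235 by limma. MRPL23 was at 4.88, 6.68, 5.09 and 5.89 TPM and at 7.07, 8.69, 6.86 and 6.26 TPM, with 1 sample of each group inside the range of the other, and it had the largest difference of the 78, 0.31 ± 0.12 (SE, limma adjusted p = 0.256). MRPL28 averaged 107 ± 7.26 and 120 ± 8.80 TPM, with overlapping samples (log2 difference 0.16, limma adjusted p = 0.284). MRPL40, MRPL30 and MRPL10 followed with log2 differences of 0.12, 0.15 and 0.08.

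MRPL10 anchors the stalk of the large subunit, which carries copies of MRPL12 and recruits translation factors. MRPL10 was at 181, 179, 189 and 175 TPM and at 195, 197, 191 and 185 TPM, with 1 sample of each group inside the range of the other. MRPL12 was at 146, 170, 173 and 166 TPM and at 169, 166, 163 and 206 TPM (log2 difference 0.10, 95% interval -0.09 to 0.29), and a single high sample, Siglec-XII replicate 4, stood above the rest. MRPS30, a large subunit protein specific to mitochondria, averaged 28.5 ± 1.77 and 27.3 ± 2.30 TPM.

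In the small subunit, MRPS21 had the smallest p-value of all 78. MRPS21, whose bacterial counterpart lies near the site where the ribosome meets the start of the message, was at 16.7, 16.2, 18.8 and 19.5 TPM with the empty vector and at 15.5, 15.9, 14.5 and 13.8 TPM with Siglec-XII. The groups did not overlap, with the nearest samples close, at 15.9 and 16.2 TPM. The log2 difference was -0.24 ± 0.08 (SE, limma adjusted p = 0.194). MRPS17, an RNA-binding protein of the small subunit, averaged 19.6 ± 0.592 and 17.6 ± 1.40 TPM (log2 difference -0.15, limma adjusted p = 0.298), with Siglec-XII replicate 3 at 19.6 TPM among the samples without Siglec-XII. MRPS10 had a log2 difference of -0.09, and MRPS16 and MRPS26 had 0.18 and 0.10, each with overlapping samples.

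Groups that did not overlap were thus found for 1 gene higher (MRPS18A, 1.28% of the 78) and 2 lower (MRPL32 and MRPS21, 2.56%), where 9.17% and 1.68% of all entries did not overlap in these directions. Both genes that were lower fall among the shorter transcripts, with 859 nt for MRPL32 and 1086 nt for MRPS21, as does MRPS18A with 1163 nt.

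The paralogs of bacterial protein S18 occupy 3 places in the particle. MRPS18C sits where the bacterial protein does, MRPS18B elsewhere in the small subunit and MRPS18A in the large one. Their log2 differences were -0.15 (95% interval -0.37 to 0.07) for MRPS18C, -0.01 (-0.14 to 0.12) for MRPS18B and 0.13 (0.02 to 0.23) for MRPS18A. MRPS18C was at 84.4, 76.7, 64.9 and 61.3 TPM and at 61.8, 63.9, 60.6 and 70.3 TPM, where 2 samples with the empty vector were high and the other 2 lay within the range of Siglec-XII. Whether the log2 differences of the 3 paralogs differ from each other was not tested. MRPS36, outside the ribosome, averaged 27.5 ± 4.17 and 30.7 ± 2.66 TPM (log2 difference 0.16, 95% interval -0.08 to 0.41).

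Neither subunit nor origin separated the differences. The median log2 difference was -0.01 over the 51 large subunit genes, of which 23 were above 0, and -0.01 over the 26 small subunit genes, of which 10 were. It was -0.02 over the 45 genes with a bacterial counterpart and -0.01 over the 29 specific to mitochondria. Genes with an ETS match had a median of -0.01, the same as those without, and genes with a YY1 match one of -0.04. The 26 tested partners that share a start region with these genes had a median of 0.00, with 0 at an adjusted p under 0.05 by limma and 3 with a p of 0.05 or less before adjustment. Over all entries, 0.648% and 16.5% passed these cutoffs, so the partners were not called more often. Of the 3 partners, TWNK, the mitochondrial helicase paired with MRPL43, had a log2 difference of 0.29, while MRPL43 had 0.05, and MITD1 had -0.30 beside 0.15 for its partner MRPL30. SLC7A7, an amino acid transporter paired with MRPL52, had 0.30 beside 0.08.

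Single samples set much of the small variation. Empty vector replicate 1 held the lowest value of the 8 samples for 28 of the 78 genes, and empty vector replicate 4 held the highest for 31. The median deviation of the 78 genes from their own means was -0.06, 0.01, -0.01 and 0.08 on the log2 scale in the 4 empty vector samples and -0.03, -0.03, 0.01 and 0.05 in the 4 Siglec-XII samples. Both ends of this range thus lay within the empty vector group. Over all entries tested, the median deviation was -0.09, 0.01, -0.04 and -0.01 in the empty vector samples and 0.04, 0.02, 0.02 and 0.06 in the Siglec-XII samples. The low position of empty vector replicate 1 was thus not particular to the 78 genes. Protein-coding genes with transcripts under 1000 nt had deviations of -0.07, 0.00, 0.01 and 0.08 in the empty vector samples. The mitochondrially encoded mRNAs were at 0.38 in empty vector replicate 1, where these genes were lowest, and at -0.10 in replicate 4, where they were highest.

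Of 84 cytosolic ribosomal protein genes tested, 77 were below 0 with a median log2 difference of -0.14, and 0 passed an adjusted p of 0.05 by limma while 36 had 0.05 or less before adjustment, all lower, where 2.61% of all entries were lower at this p. They took 14.9% ± 0.777 of all TPM without and 13.5% ± 0.482 with Siglec-XII, where the 78 mitochondrial ones took 0.690% ± 0.0268 and 0.691% ± 0.0197 (SD, n = 4). The difference between the 2 gene families was not tested.

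**Figure D3:**
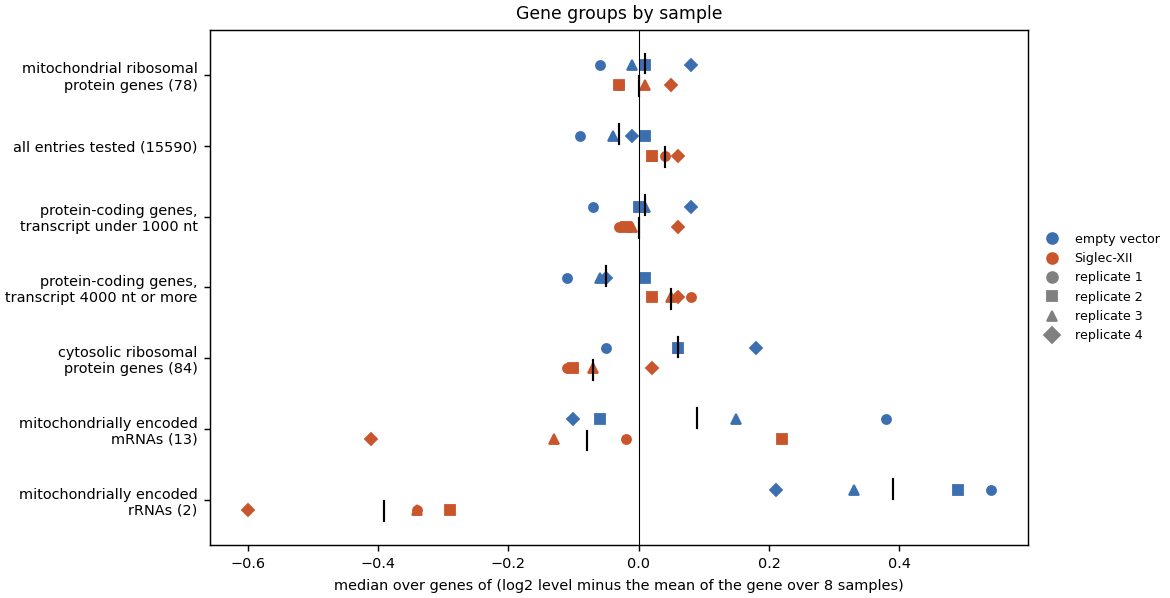
Median deviation of gene groups from each gene's mean over the 8 samples, on the log2 scale, for each empty vector (blue) and Siglec-XII (orange) sample, with marker shape for the replicate and black ticks for group means. For the mitochondrial ribosomal protein genes the samples lie between -0.06 and 0.08 with both groups mixed, and for the mitochondrially encoded rRNAs the empty vector samples (0.21 to 0.54) are all above the Siglec-XII samples (-0.60 to -0.29).

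The RNA components of the same ribosome fell with Siglec-XII. MT-RNR1, the rRNA of the small subunit, was at 1738, 1757, 1560 and 1500 TPM with the empty vector and at 985, 965, 988 and 842 TPM with Siglec-XII. MT-RNR2, the rRNA of the large subunit, was at 5547, 5052, 4584 and 4051 TPM and at 2881, 3123, 2850 and 2345 TPM. For both, every sample with Siglec-XII was far below every sample without. The log2 differences were -0.79 ± 0.07 (SE, limma adjusted p = 0.000587) for MT-RNR1 and -0.78 ± 0.11 (SE, limma adjusted p = 0.0165) for MT-RNR2. The call of MT-RNR1 was kept in all alternatives that tested it. That of MT-RNR2 was lost without a filter on low values (adjusted p = 0.118), without the mean-variance trend (0.0506) and without empty vector replicate 3 (0.0561), with log2 differences from -0.86 to -0.70 throughout.

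The mRNAs of the mitochondrial genome, which these ribosomes translate, had log2 differences nearer to 0. All 13 were below 0 with a median log2 difference of -0.17, and 0 passed an adjusted p of 0.05 by limma, with 1 at an unadjusted p of 0.05 or less (MT-ND4L, -0.29 ± 0.12 SE). MT-ND4, whose message overlaps that of MT-ND4L, had -0.29 as well. The summed rRNA level divided by the summed mRNA level was 0.0755, 0.0936, 0.0737 and 0.0800 in the empty vector samples and 0.0514, 0.0465, 0.0543 and 0.0554 with Siglec-XII, a ratio chosen after the values were seen and given without a test. The groups did not overlap in this ratio. The 22 mitochondrial tRNA entries summed to 6219 ± 1790 and 6184 ± 1230 TPM (SD, n = 4).

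Per the labels, the libraries came from a total RNA kit that removes cytoplasmic and mitochondrial rRNA, whereas the methods of the study name an mRNA kit, and which was used is not known here. Beside these values, the cytosolic rRNA entry RNA5-8SN4 was at 5.42, 6.19, 5.95 and 5.76 on the log2(TPM + 1) scale with the empty vector and at 5.57, 5.33, 5.29 and 5.98 with Siglec-XII, with overlapping groups. The median deviation of small structured RNAs was 0.16, 0.24, 0.26 and 0.31 with the empty vector (mean 0.24). With Siglec-XII it was 0.16, 0.07, -0.06 and -0.07 (mean 0.03), so the groups met at 0.16. Of the 48 entries lower at an adjusted p under 0.05 by limma, 3 were annotated as protein-coding, against 47 of the 53 higher. Of all 15590 entries tested, 12081 were annotated as protein-coding. MT-RNR1 and MT-RNR2 are among the lower entries without this label, and entries missing from the annotation lack it too. The part of library preparation in the difference of MT-RNR1 and MT-RNR2 was not tested.

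**Figure D4:**
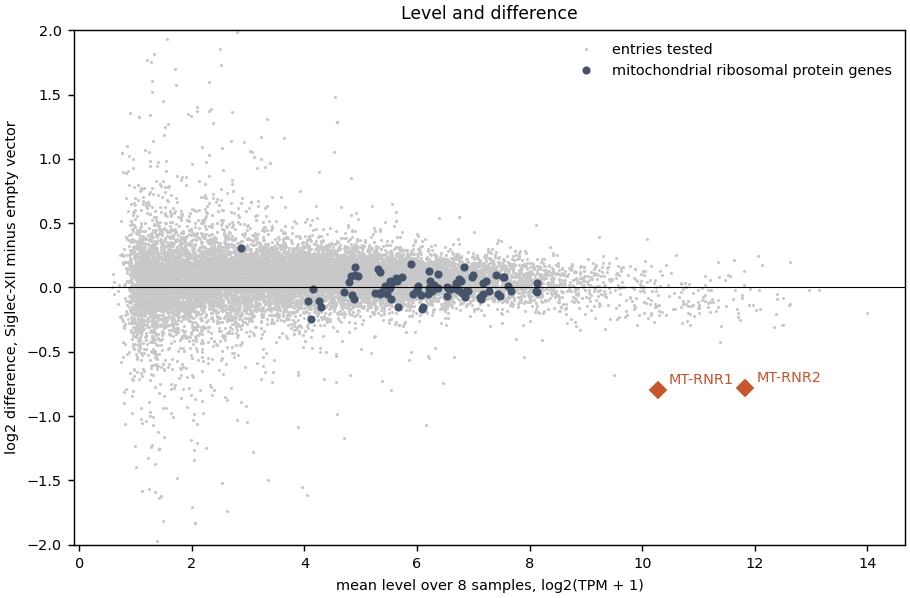
Mean level over the 8 samples against log2 difference (Siglec-XII minus empty vector) for the entries tested (grey), the 78 mitochondrial ribosomal protein genes (dark) and the mitochondrially encoded rRNAs (orange), with 53 entries beyond the vertical axis not drawn. The 78 genes lie between -0.24 and 0.31, and MT-RNR1 and MT-RNR2 at -0.79 and -0.78.

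Among genes that build and serve the mitochondrial ribosome, 0 passed an adjusted p of 0.05 by limma apart from the rRNAs. Of 26 assembly factors 13 were above 0, with a median log2 difference of 0.00 and 1 with a p of 0.05 or less before adjustment, the rRNA methyltransferase MRM2 (0.12, limma adjusted p = 0.282). NGRN, an assembly factor of the large subunit, had 0.09. Of 16 translation factors 11 were above 0, with a median of 0.02. SLIRP, which with LRPPRC stabilizes mitochondrial mRNAs, had the only unadjusted p of 0.05 or less among them, at 8.27, 8.23, 8.37 and 8.52 on the log2(TPM + 1) scale with the empty vector and 8.15, 8.16, 8.16 and 8.19 with Siglec-XII, without overlap (-0.18 ± 0.06 SE, limma adjusted p = 0.201). C12orf65, a ribosome rescue factor, had 0.12.

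The list of 20 genes for mitochondrial aminoacyl-tRNA synthetases also counts QRSL1, GATB and GATC, which encode subunits of an amidotransferase rather than synthetases. Of the 20, 14 were above 0 with a median of 0.02, beside 68.1% above 0 over all entries. Before adjustment 3 genes had a p of 0.05 or less, all higher, where 13.9% of all entries were higher at this p. They include IARS2, which charges the isoleucine tRNA (0.16 ± 0.05 SE, limma adjusted p = 0.173, no overlap), and HARS2, which charges the histidine tRNA (0.16, adjusted p = 0.264). Of 17 genes of mitochondrial transcription and mRNA processing 8 were above 0, with a median of -0.01. FASTKD5 and TBRG4, members of the FASTK family that acts on mitochondrial RNA, had 0.19 ± 0.05 and 0.20 ± 0.06 (SE, limma adjusted p = 0.138 and 0.174). Of 6 mitoribosomal genes listed under other symbols 2 were above 0, with a median of -0.03 and 0 with a p of 0.05 or less before adjustment by limma. Among them, AURKAIP1 had 0.08 and PTCD3 -0.07, both small subunit proteins, and ICT1 is an older symbol of MRPL58 and so is also among the 78.

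Of 10 regulators of mitochondrial biogenesis 8 were above 0, with a median log2 difference of 0.11 and 3 higher with a p of 0.05 or less before adjustment, beside a median of 0.07, 68.1% above 0 and 13.9% higher at this p over all entries. MYC was at 7.11, 7.25, 7.19 and 7.12 on the log2(TPM + 1) scale with the empty vector and 7.37, 7.37, 7.29 and 7.36 with Siglec-XII, without overlap (0.18 ± 0.05 SE, limma adjusted p = 0.115). Among the subunits of GABP, GABPB1 had 0.17 ± 0.06 (SE, adjusted p = 0.216), GABPA, the subunit that binds DNA, 0.08 ± 0.09 (SE, adjusted p = 0.691) and GABPB2 -0.05 ± 0.13 (SE, adjusted p = 0.862). YY1 had 0.14 ± 0.05 (SE, adjusted p = 0.247). NRF1, whose motif was also searched, had the largest difference of the 10, 0.25 ± 0.12 (SE, limma adjusted p = 0.317).

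**Figure D5:**
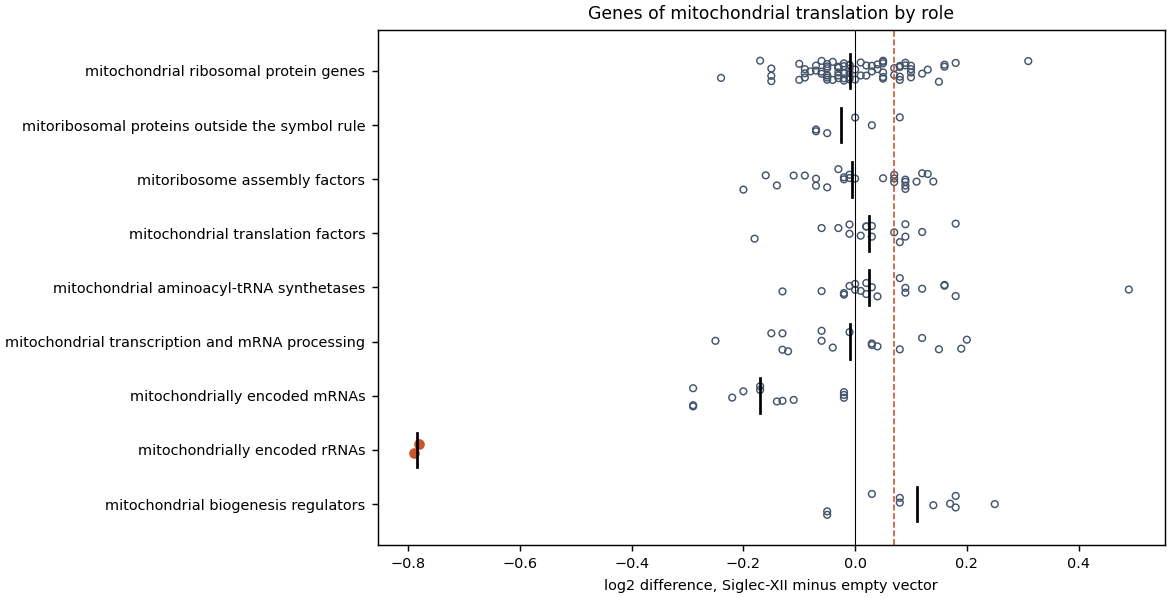
Log2 difference (Siglec-XII minus empty vector) of each tested gene by role in mitochondrial translation, with points spread vertically to separate them, black ticks at list medians and the dashed line at the median of all entries, 0.07. Filled orange points mark an adjusted p under 0.05, which MT-RNR1 and MT-RNR2 reached and no other gene shown did.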

How the data were processed

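RNA-seq of 8 Caco-2 samples was analyzed from 1 table. The authors quantified reads on hg19 with kallisto (0.45.0 in the submitters' processing notes) and deposited log2 values, log2(TPM + 1), with 63816 entries. Each column summed to 1000000 TPM, so depth per sample is unknown and no counting error could be given. Sample columns left unused numbered 0.

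A linear model per entry compared the groups (limma 3.58.1 under R 4.3.3, lmFit, eBayes with trend, two-sided, Benjamini-Hochberg) on the deposited values. Tested were 15590 entries, those at 1 TPM or more in 4 or more samples. The fit was tested on simulated data. Fold changes are on the log2(TPM + 1) scale, which understates those of low genes. SIGLEC12 was compared by exact permutation.

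Gene IDs of 86.9% of the entries were in the GENCODE annotation lifted to GRCh37, which gave positions and lengths. For MRPL45 and MRPS18B, whose used entries were not in it, another entry of the symbol gave the position. Promoter windows are RefSeq (GRCh38.p14).

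The members and gene lists were chosen with earlier results of these data known. Values per sample were set for members with the 8 smallest p-values in each direction, the 5 highest and 5 lowest levels, and roles (S18 paralogs, MRPS30, MRPS36, MRPL12, MRPS12), and for the 2 smallest p-values of each related list. GABPA, GABPB2, YY1, NRF1 and the partner genes were named after their values were seen. The lists are assembly factors, translation factors, synthetases (with QRSL1, GATB and GATC), transcription and processing, other mitoribosomal genes, mitochondrial mRNAs and rRNAs, biogenesis regulators, cytosolic ribosomal proteins and cell type markers. Alternatives covered scaling, filters, the trend, array weights, a replicate block and each sample left out. Figures used matplotlib 3.10.9 under Python 3.11.15.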

Additional observations from a re-analysis of the deposited data

Results flagged for a closer look

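Of 60 sets of 4 samples examined, 3 held a sample whose gap to its nearest neighbor exceeded Dixon's 95% critical value, which chance gives in about 1 of 20. MRPL12 in Siglec-XII replicate 4 was at 7.70 on the log2(TPM + 1) scale, above 7.41 in the next sample. MRPS15 in empty vector replicate 4 was at 7.77, above 7.57. MRPS18B in empty vector replicate 1 was at 4.11, below 4.17.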

How the results depend on the processing

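Under all 20 alternatives 0 of the 78 genes passed an adjusted p of 0.05 by limma, with a lowest adjusted p of 0.12. At an unadjusted p of 0.05 or less, 3 were higher and 4 lower as reported, 1 and 11 after quantile normalization, 0 and 12 with equal upper quartiles, 0 and 9 with mitochondrially encoded and the 100 most abundant entries left out, 1 and 9 with the length trend removed, 5 higher with no filter beyond a value above 0, and 1 higher without the trend. With each sample left out in turn, 0 to 5 were higher and 2 to 4 lower. Quantile normalization and equal upper quartiles moved the median log2 difference of the 78 to -0.07 and left 20 and 19 above 0, against 34. With the replicate number as a block, 2 were lower. Same-numbered samples had correlations of 0.0400, 0.0282, -0.0742 and 0.0591 in their deviations, so the numbers do not pair them. Of the related lists, 1 gene rather than 2 passed with no filter and without the trend, 0 passed where the mitochondrially encoded entries were left out and so not tested, and 1 to 2 with each sample left out. Signs reversed for MRPS12 (-0.03 after quantile normalization, -0.01 with equal upper quartiles and array weights, -0.05 to 0.10 with 1 sample left out), MRPS15 (-0.03, -0.05 and -0.03 after quantile normalization, with equal upper quartiles and with abundant entries left out, -0.01 to 0.06 with 1 sample left out), MRPL11 (-0.02, -0.01 and -0.0049 with equal upper quartiles, abundant entries left out and the length trend removed), and MRPL20 (-0.06 to 0.01), MRPL51 (-0.08 to 0.01) and MRPS18B (-0.04 to 0.0011) with 1 sample left out. The cause was not tested. Summing all entries of a symbol, an alternative chosen after seeing the data, left these counts within 1.5 times. The table holds no read counts, so the limit set by depth could not be sized.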
